A study of Gallus gallus with 12 samples.

Results

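A set of 200 transcripts of the embryonic chick lung was level from embryonic day (E) 14 to E16 and lower on all 3 arrays at E18. They were taken from 21390 Ensembl transcripts that were measured on 12 microarrays. The members were selected on the values described here, so none of these values is a test of the pattern. A transcript was chosen when all 12 of its log2 values were at least 7, the means of E14, E15 and E16 lay within less than 0.4 of each other, every E18 value was below all 9 earlier values, and the E18 mean was at least 0.7 below the mean of the 9 earlier arrays. Of 16220 transcripts with all values at least 7, 12398 were level to E16 in this sense, 1588 of those had all 3 E18 values below the 9 earlier ones, and 604 met the whole rule. The 200 with the largest difference were kept. Over all transcripts, 9.17% had every E18 value below all earlier values, and the 200 members had this by the way they were chosen.

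The samples were whole lungs of untreated white leghorn embryos at E14, E15, E16 and E18, with 3 samples at each stage. Whether a sample came from 1 embryo or from several is not given in the sources used here, so the spread between arrays may be technical. During this period the parabronchi, the airway tubes of the bird lung, give rise to atria, infundibulae and then to the air capillaries in which gas is exchanged, while blood capillaries expand and the interstitium between them is reduced. Transcripts of cells that become a smaller share of the organ and transcripts that are turned down within cells both read lower in whole-lung RNA, and the arrays cannot tell these apart. The deposited values carry Ensembl transcript identifiers without gene names, and 0 of 21390 were found in the gene table used here, so the members are named by identifier and no function is given to them. For the same reason the label of whole lung could not be checked against marker genes, and it is not known here whether several members belong to 1 gene.

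The arrays at E18 were not alike. The standard deviation (SD) of the log2 values of an array was 2.58, 2.38 and 2.21 on the E18 replicates 1, 2 and 3. It lay between 2.59 and 2.62 on 7 of the 9 earlier arrays, and was 2.44 on E15 replicate 3 and 2.51 on E16 replicate 1. Values are therefore given for each E18 array. The counts of transcripts and of members that meet the rule are also given without E18 replicates 2 and 3. Most other counts rest on all 3 E18 arrays and were not repeated without them.

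The median late fall of the 200 transcripts was 1.26 log2 units, which is a 2.39-fold lower level. The late fall is the mean of the 9 arrays of E14 to E16 minus the mean of the 3 arrays of E18. It ran from 1.05 to 2.56, with an interquartile range from 1.13 to 1.43, and was at least 2, a 4-fold lower level, in 6 transcripts. Of all 21390 transcripts, 66 had a fall of at least 2. The median level of the set was 11.60 at E14, 11.51 at E15, 11.38 at E16 and 10.24 at E18. The medians of all transcripts were 10.74, 10.64, 10.71 and 10.49 at the same stages. The set thus lay above them to E16 and below at E18. The deposited values run from 3.73 to 15.98. The fall differed in size between the 3 E18 arrays. Against the mean of the earlier arrays, the median difference of the set was -0.53 on the first E18 replicate, -1.06 on the second and -2.15 on the last. The 12398 transcripts that were level to E16 had medians of -0.03, -0.19 and -0.52 on the same arrays. The arrays with the lower SD thus read lower in the set and, to a smaller degree, in level transcripts as a whole. The part of the spread of each array in the fall was not tested.

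**Figure D1:**
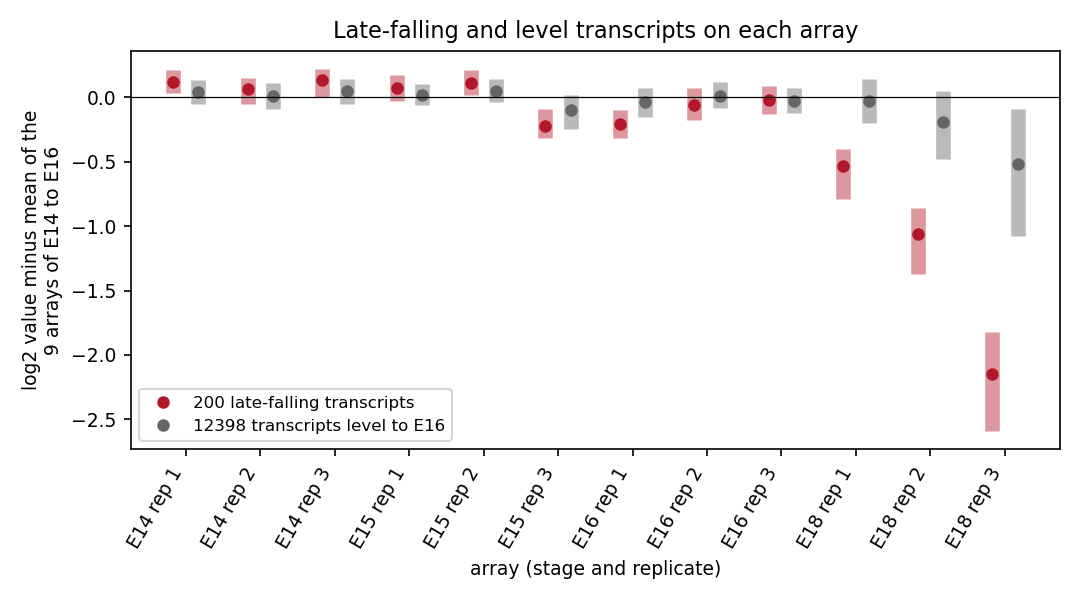
Points are medians and bars the interquartile range, over transcripts, of the log2 value on each array minus the mean of the 9 arrays of E14 to E16, for the 200 late-falling transcripts (red) and for the 12398 transcripts level to E16 (grey). The late-falling set lies at -0.53, -1.06 and -2.15 on the 3 E18 arrays, where the level transcripts lie at -0.03, -0.19 and -0.52.

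ENSGALT00000002882 had the largest fall, 2.56 log2 units or 5.90-fold. Its values were 10.94, 10 (rounded) and 10.81 at E14, 10.70, 10.62 and 10.53 at E15, 10.29, 10.70 and 11.03 at E16, and 8.37, 7.61 and 8.21 at E18. The mean was 10.62 ± 0.32 (SD, n = 9) over the earlier arrays and 8.06 ± 0.40 (SD, n = 3) at E18. The gap between its lowest earlier value and its highest E18 value, 1.63, was the widest in the set, and E18 replicate 3 was not its lowest array. All 3 E18 arrays were at least 2.26 below its earlier mean.

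The next members had their lowest value on E18 replicate 3. ENSGALT00000006413 read 12.27, 12.44 and 12.29 at E14, 12.57, 12.47 and 11.69 at E15, 11.99, 12.76 and 12.34 at E16, and 10.84, 10.46 and 8.22 at E18. Its fall of 2.48 was made of 1.47 and 1.85 on E18 replicates 1 and 2 and of 4.10 on replicate 3, the largest difference of any member on any array. ENSGALT00000039421 was between 10.45 and 11.13 on the earlier arrays and read 9.70, 8.53 and 7.24 at E18, a fall of 2.28. Its E18 mean of 8.49 had an SD of 1.23 (n = 3), so the 3 samples of that stage were further apart than all 9 earlier ones together. ENSGALT00000014832 was the most variable of the 10 leading members before E18, with values between 10.12 and 11.73, and read 9.84, 8.99 and 7.40 at E18. The groups did not overlap, but E18 replicate 1 was only 0.28 below the lowest earlier array, E16 replicate 1.

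Of the 10 members with the largest fall, 9 were lowest on E18 replicate 3 and 9 were at least 0.7 below their earlier mean on each E18 array. The exception to the latter was ENSGALT00000036946. It read 11.38, 11.33 and 11.22 at E14, 11.32, 11.30 and 11.03 at E15, 10.96, 10.96 and 11.17 at E16, and 10.92, 9.21 and 7.86 at E18. On E18 replicate 1 it was 0.27 below its earlier mean and 0.04 below the E16 arrays nearest to it, so its fall of 1.86 lay almost wholly on the other 2 arrays. ENSGALT00000040748, ENSGALT00000006299, ENSGALT00000012745 and ENSGALT00000037506 lay between these patterns, with falls of 2.05, 2.03, 1.97 and 1.86, E18 replicate 1 lower by 0.83, 0.98, 0.93 and 0.79, and E18 replicate 3 lower by 3.10, 2.98, 2.86 and 3.12. ENSGALT00000008885, the last of the 10, was more even. Its earlier values ran from 9.12 to 9.97 and its E18 values were 8.26, 7.79 and 7.55, a fall of 1.81 with an SD of 0.37 at E18 (n = 3).

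**Figure D2:**
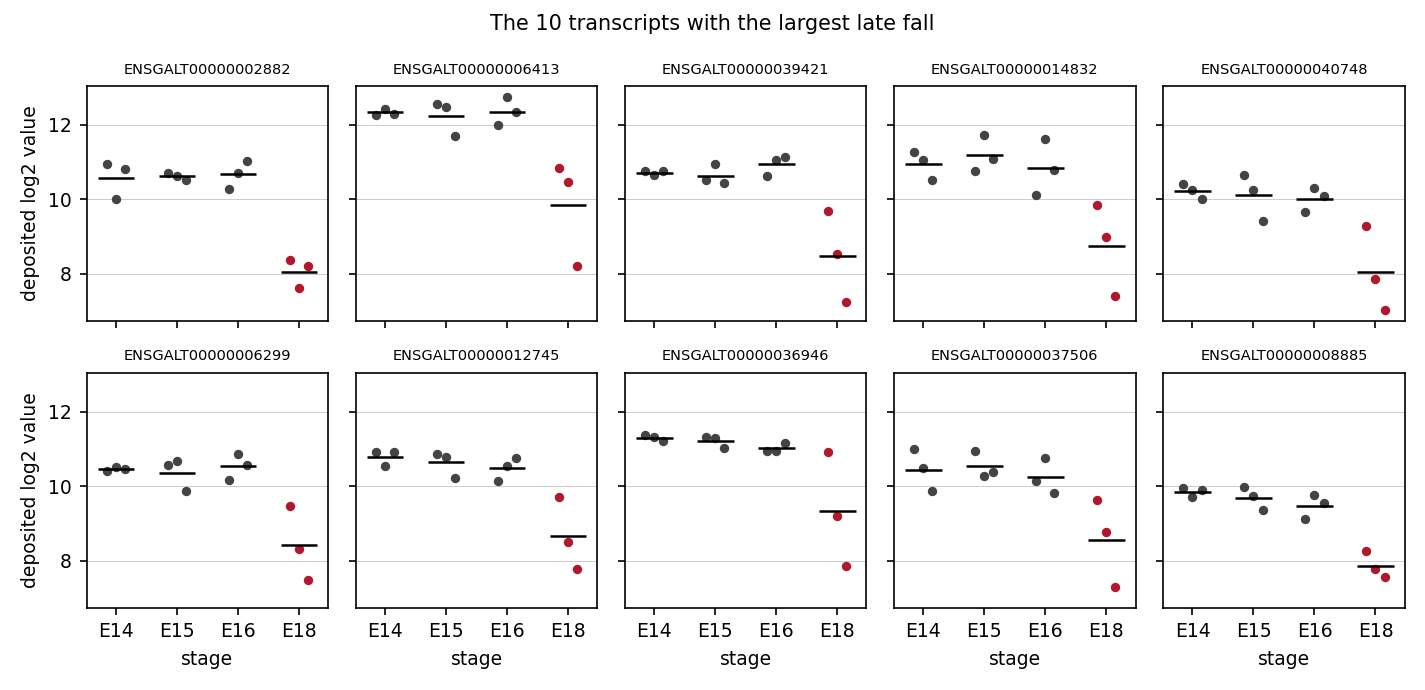
Deposited log2 values of the 10 transcripts with the largest late fall, by stage, with 1 point per array (replicates 1 to 3 from left to right, E18 in red) and a bar at the stage mean. The E18 points of ENSGALT00000002882 lie together between 7.61 and 8.37, while those of most others spread over more than 2 log2 units with replicate 3 lowest.

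Across the 200 transcripts, E18 replicate 3 was the lowest E18 array in 180, E18 replicate 2 in 17 and E18 replicate 1 in 3. Replicate 3 was lowest in 90.0% of the members, in 71.5% of the level transcripts and in 52.3% of all transcripts. This was thus shared in part with the other transcripts. The order with replicate 1 highest and replicate 3 lowest held for 160, or 80.0%, for 54.9% of the level transcripts and for 40.4% of all transcripts. A median of 56.9% of the summed difference of a member came from E18 replicate 3, 28.1% from replicate 2 and 13.9% from replicate 1, and the share of replicate 3 ran from 19.8% to 86.2%. The median share of replicate 3 was higher in the level transcripts, at 64.0%, and in all transcripts, at 60.2%, while that of replicate 1 was lower, at 8.9% and 7.1%. In those transcripts the differences can have either sign, so their shares are a looser measure. In numbers of transcripts, 196 were at least 1 log2 unit lower on E18 replicate 3, 111 on replicate 2 and 27 on replicate 1. At this margin the single arrays were not counted over all transcripts. A fall of at least 0.7 on replicates 3, 2 and 1 was found in 200, 174 and 62 members. Of all 21390 transcripts, 6962, 3880 and 1368 had it, so the order of the arrays was shared with the background. The members were chosen for a large mean fall, so their counts are a description. The size of the fall on replicate 3 did not follow that on the other arrays. Over the 200 transcripts, which are not independent and were selected on these values, the correlation of the falls was -0.19 (Spearman's rho -0.21) between replicates 1 and 3, -0.12 (rho -0.25) between replicates 2 and 3, and 0.37 (rho 0.23) between replicates 1 and 2. The choice by the mean of the 3 arrays bears on these signs, since a member with a small fall on 1 array needed a larger one on another. The median SD of a member was 0.860 at E18, against 0.129 at E14, 0.207 at E15 and 0.159 at E16. For all 21390 transcripts it was 0.528 at E18 and 0.140 at E14.

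**Figure D3:**
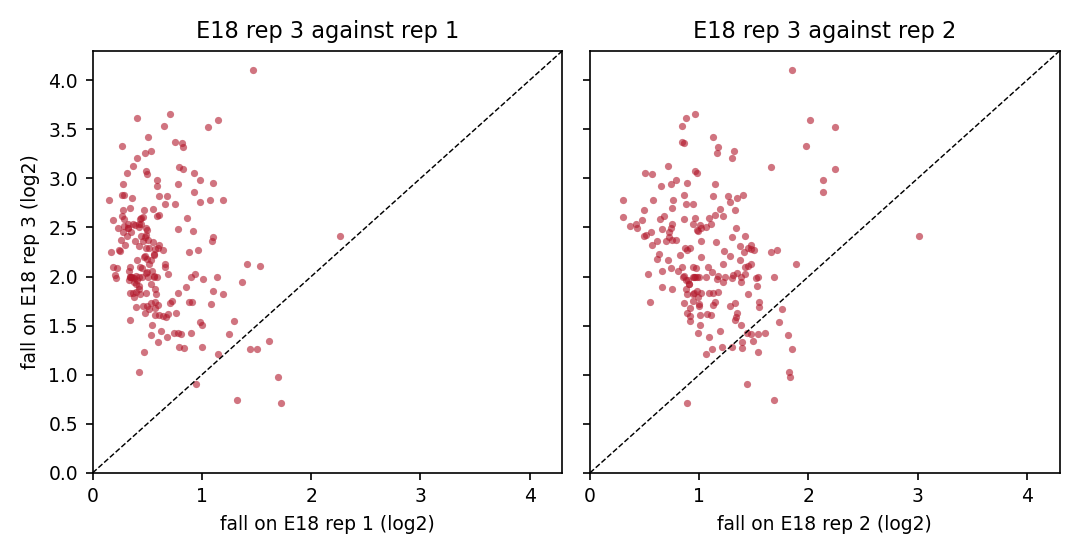
Each point is 1 of the 200 late-falling transcripts, with its fall on E18 replicate 3 (vertical axis, log2 units) against its fall on E18 replicate 1 (left) or replicate 2 (right), and the dashed line marks equal falls. Most points lie above the line, as the medians of 2.15, 0.53 and 1.06 on replicates 3, 1 and 2 give.

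A smaller group of members was lower on every E18 array by the full margin. In 56 of the 200, or 28.0%, each of the 3 E18 values was at least 0.7 below the earlier mean, where 1.8% of all transcripts and 0.645% of the level transcripts were. The rule favours such transcripts, so the difference between these shares is a description. The medians of the 56 were 0.98, 1.19 and 1.95 lower on E18 replicates 1, 2 and 3, and in 15 of them each array was at least 1 lower. Each array was at least 1 lower in 144 of all 21390 transcripts and in 16 of the 12398 level ones. The replicates lay closest in 3 members. ENSGALT00000026770 read 9.96, 10.05 and 9.90 at E18 (SD 0.08, n = 3), with earlier values of 11.18, 12.00 and 10.66 at E14, 11.61, 10.89 and 10.71 at E15, and 10.93, 10.86 and 11.16 at E16. Here it was the earlier samples that varied, and E14 replicate 2 was the highest of them. ENSGALT00000018959 read 8.68, 8.79 and 8.94 at E18 after 10.67, 10.31 and 10.34 at E14, 10.31, 10.22 and 10.02 at E15, and 10.17, 9.96 and 10.52 at E16. Its fall was 1.48, its groups were 1.02 apart, and E18 replicate 1 was its lowest array. The third, ENSGALT00000024237, read 7.51, 7.29 and 7.35 at E18 (SD 0.11, n = 3).

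The spread at E18 was widest in 3 members that were far lower on replicate 3 than on the others. One of them, ENSGALT00000012717, is also among the 56, since its E18 replicates 1 and 2 were 0.71 and 0.96 below its earlier mean. ENSGALT00000031072 had the largest SD at E18, 1.73, with values of 11.34, 10.87 and 8.13 after earlier values between 11.48 and 12.06. ENSGALT00000012717 read 11.23, 10.98 and 8.27 after values between 11.68 and 12.16. ENSGALT00000024342 read 10.24, 10.05 and 7.35 after values between 10.40 and 11.52. In these 3 transcripts the first 2 E18 samples were within 0.5 of each other and the last was more than 2 log2 units below both. The SD at E18 was at least 1 in 74 members and under 0.3 in 11.

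Members were mostly of middle brightness among the level transcripts. Their mean over the earlier arrays ran from 8.76 to 14.00, with a median of 11.49 and quartiles of 10.88 and 12.03. The level transcripts had a median of 11.95 and quartiles of 10.66 and 12.91. The brightest member was ENSGALT00000001231, with 14.24, 13.95 and 14.05 at E14, 14.15, 14.09 and 14.07 at E15, 13.60, 13.85 and 14.02 at E16, and 12.63, 12.78 and 12.06 at E18. Its fall was 1.51, and all E18 samples were at least 1.22 below the earlier mean. ENSGALT00000025215 followed, between 13.58 and 14.20 on the earlier arrays and at 12.61, 12.98 and 12.35 at E18. ENSGALT00000012598, ENSGALT00000026411 and ENSGALT00000001684 completed the 5 brightest, with earlier means of 13.76, 13.67 and 13.53 and falls of 1.10, 1.65 and 1.41. All 5 were at least 0.7 lower on each E18 array. At the other end, ENSGALT00000024237 had an earlier mean of 8.76 ± 0.38 (SD, n = 9) and an E18 mean of 7.38. ENSGALT00000035378, ENSGALT00000004270 and ENSGALT00000027789 had earlier means of 9.40, 9.76 and 9.78, and their E18 replicate 1 was 0.35, 0.66 and 0.53 lower. Of the 5 dimmest, which also include ENSGALT00000008885, 2 were at least 0.7 lower on each E18 array.

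By brightness, the share of members with each E18 array at least 0.7 lower was highest at the 2 ends, which hold few members. The choice by the mean fall of the 3 arrays bears on these shares. The same shares among level transcripts were not counted by class. It was 13 of 17 members with an earlier mean of 13 or more, 10 of 37 from 12 to 13, 12 of 88 from 11 to 12, 14 of 46 from 10 to 11 and 7 of 12 under 10. The fall on E18 replicate 1 had a median of 0.88 in the brightest class and in the dimmest, and of 0.48 from 11 to 12. That on E18 replicate 3 was 1.94 in the brightest class and 1.41 in the dimmest. In between it was 2.27 from 12 to 13, 2.21 from 11 to 12 and 2.27 from 10 to 11. Level transcripts also differed by brightness on this last array, but their fall was smaller from 12 to 13 than from 10 to 12. Their median difference on E18 replicate 3 was -0.94 at an earlier mean from 10 to 11 and -0.92 from 11 to 12. These classes hold 46 and 88 of the 200 members. The difference was -0.60 from 12 to 13, with 37 members, -0.45 from 9 to 10, with 11, and -0.43 from 13 to 14, with 16. From 7 to 8, with 0 members, it was 1.24. On E18 replicate 1 it stayed between -0.05 and 0.03 in every class. Among transcripts with an earlier mean between 10.88 and 12.03, the quartiles of the set, 100 members were compared with 2973 level transcripts. The medians of the members were -0.48, -1.02 and -2.26 on E18 replicates 1, 2 and 3, and those of the level transcripts were -0.03, -0.27 and -0.93. The members were thus lower by 0.45, 0.74 and 1.33 than level transcripts of like brightness. They were chosen for their fall and are counted among the 2973, so a lower value was fixed by the choice. Only the sizes are described.

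**Figure D4:**
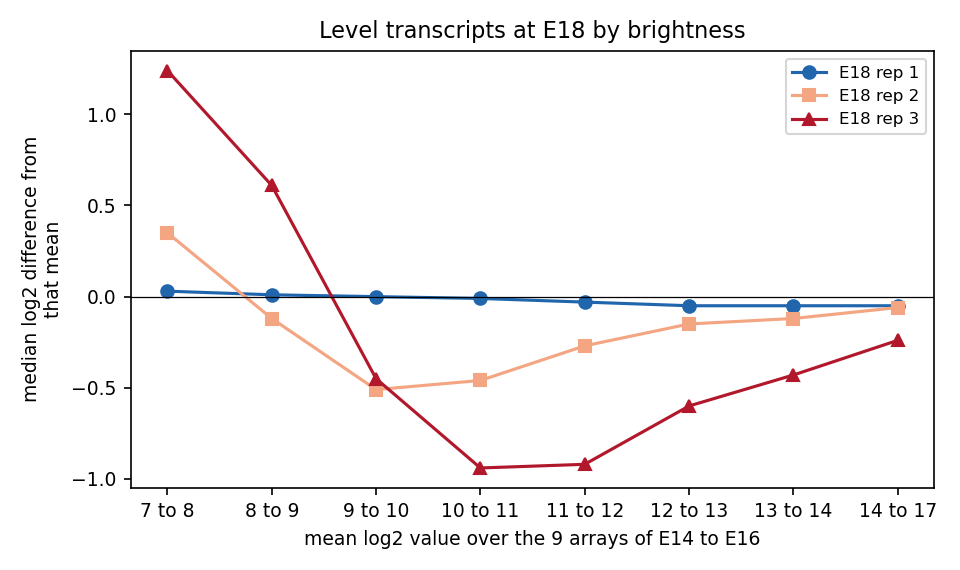
Median log2 difference between each E18 array and the mean of the 9 earlier arrays, over the 12398 transcripts level to E16, in classes of that mean (the last class holds all of 14 or more). E18 replicate 1 stays between -0.05 and 0.03, while E18 replicate 3 runs from 1.24 in the dimmest class to -0.94 from 10 to 11.

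Before E18 the set was level within the limit of 0.4 that the rule sets, but it was not without structure. The E16 mean was below the E14 mean in 170 of the 200, or 85.0%, and in 61.4% of the level transcripts. The means went down in order from E14 through E15 to E16 in 119 members, or 59.5%, and in 30.9% of the level transcripts. The median range of the 3 stage means was 0.26 for the members and 0.18 for the level transcripts. Part of this order lay in 2 arrays. The median of the set was 0.22 below its earlier mean on E15 replicate 3 and 0.21 below it on E16 replicate 1, against 0.10 and 0.04 for the level transcripts, and on the other 7 earlier arrays it was between -0.06 and 0.13. The lowest earlier value of a member was on E15 replicate 3 in 73, or 36.5%, which was near the 34.2% of the level transcripts. It was on E16 replicate 1 in 69, or 34.5%, against 14.1% of the level transcripts. These were the earlier arrays with the lowest SD, and the part of that SD in these values was not tested. The SD of a member over the 9 earlier arrays was between 0.08 and 0.62, with a median of 0.20.

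At the limit of 200, ENSGALT00000010426 and ENSGALT00000013720 were the last transcripts kept, with falls of 1.0523 and 1.0514, and ENSGALT00000022584 and ENSGALT00000023962 were the first beyond it, at 1.0510 and 1.0502. Of the 604, the smallest falls were 0.7007 for ENSGALT00000037870 and 0.7, after rounding, for ENSGALT00000004723, and just outside were ENSGALT00000012929 and ENSGALT00000038574, both at 0.6998. For the range of the stage means, ENSGALT00000024926 and ENSGALT00000023409 were just inside at 0.3993 and 0.3991, and ENSGALT00000018926 and ENSGALT00000039119 just outside, both at 0.4028. The lowest single values of members were 7.02 for ENSGALT00000040748 and 7.24 for ENSGALT00000039421, while ENSGALT00000007788 was left out by a value of 6.95 and ENSGALT00000039828 by 6.92. The separation of E18 from the earlier arrays was often narrow. The gap had a median of 0.18 and was under 0.1 in 62 members and at least 0.5 in 25. A gap of at least 0.5 was found in 75 of all 21390 transcripts and in 28 of the 12398 level ones. The members had a gap above 0 by the rule, so their counts are a description. Among members the gap was smallest in ENSGALT00000014538 and ENSGALT00000024230, whose E18 replicate 1 equalled the lowest earlier value after rounding to 2 decimals, at 10.58 and 10.92. ENSGALT00000000595 and ENSGALT00000005425 were just outside, with the same near equality.

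Other sets show where the members stood. The 404 transcripts that met the rule beyond the limit had a median fall of 0.84, made of 0.40, 0.69 and 1.37 on E18 replicates 1, 2 and 3, and 4.46% of them were at least 0.7 lower on each array. A set of 301 transcripts had the same late fall of 0.7 or more, all E18 values lowest and all values at least 7, but stage means that already differed by 0.4 or more before E18. Their median fall was 1.27, with 0.81, 1.29 and 1.67 on the 3 E18 arrays. No limit on number was set for these 301, whereas the members are the 200 of the 604 with the largest falls. The sizes of the falls in the 2 sets are thus not compared. In that set 56.1% were at least 0.7 lower on each array. With all signs of the rule turned, 157 transcripts rose only after E16. Their median earlier mean was 9.24, against 11.49 for the members, and their median E18 mean was 10.43, against 10.24. The floor of 7 was kept, so it bound the E18 values of the members and the earlier values of these transcripts. A lower earlier mean was thus favoured by the rule. The medians of the 157 on the 3 E18 arrays were 0.72, 0.92 and 1.44 higher. All these sets were chosen on the same arrays, so the differences between them were not tested.

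E18 was also set against the mean of E14, E15 and E16 with limma, in a linear model of the stages. At an adjusted p of at most 0.05, 15.7% of all transcripts, 3364 of 21390, were called lower at E18. Of the members 183 were called and 17 were not. The rule used this same contrast, and nothing is read from the count. The count was 74 without E18 replicate 2 and 44 with array SD as a covariate, where 648 and 314 of all transcripts were called lower. Without E18 replicate 1 it was 200, with 7539 of all transcripts, and without E18 replicate 3 it was 155, with 1532. A fit with E18 replicate 1 as the only array of its stage assumes that this sample varies like the other stages. The median SD of the members was 0.129 to 0.207 in those, against 0.860 between the 3 E18 samples. Calls from that fit thus carry no measure of the spread at E18. In a fit of only E16 and E18, limma called 0 transcripts, and 113 members and 1177 transcripts in all were lower with an unadjusted p under 0.05.

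Membership was recounted with the same rule under other settings. After cyclic loess normalization, which evens out differences between arrays that depend on brightness, 149 of the 200 still met it. The medians of all 200 on the E18 arrays became -0.50, -0.78 and -1.41, and those of the level transcripts lay between -0.04 and 0. Of the members not kept, a fall under 0.7 was found in 28 and an E18 value not below all others in 30, with some in both. After scaling to the same median and SD, 182 met the rule. The medians of the 200 were then -0.52, -0.89 and -2.17, and those of the level transcripts -0.03, 0.07 and -0.15. Quantile normalization and median centring kept 180 and 191 members, with medians of -2.43 and -1.98 on E18 replicate 3. Without E18 replicate 3, 148 still met the rule with a median fall of 0.84 over all 200. With E18 replicate 1 alone at E18, 62 met it and the median fall was 0.53. These 62 are the members already counted as at least 0.7 lower on that array, so this setting adds nothing new. In all, 138 members met the rule under each of 4 other normalizations, 81 with each of the 12 arrays left out in turn, and 68 under both. The falls of these 68 ran from 1.06 to 2.56 with a median of 1.30.

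**Figure D5:**
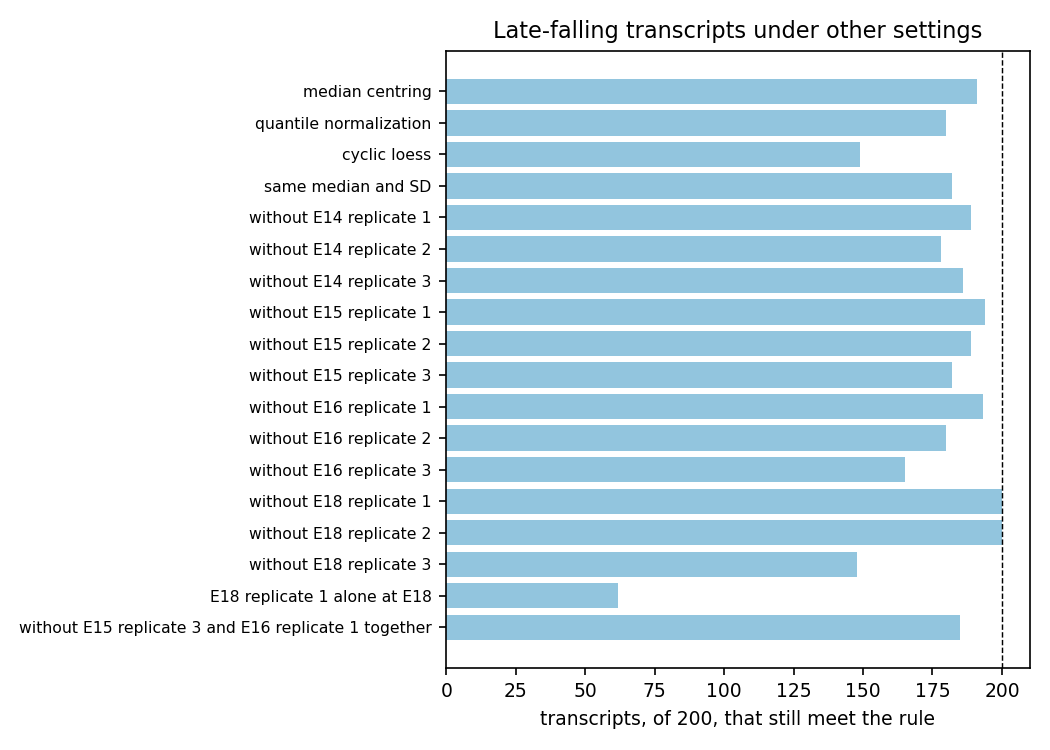
Bars give how many of the 200 late-falling transcripts still met the rule under each other setting, with a dashed line at 200. The lowest bars are those for E18 replicate 1 alone (62), without E18 replicate 3 (148) and cyclic loess (149).

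Among the 68, 21 were also at least 0.7 lower on each E18 array. Their earlier means ran from 9.81 to 14.00. They include ENSGALT00000002882 and ENSGALT00000006413, the first and second of the set, and the bright ENSGALT00000001231, ENSGALT00000025215, ENSGALT00000026411 and ENSGALT00000001684. ENSGALT00000018959, with the close E18 replicates, was also among them. The other 14 are named after their values were seen. In 4 of them, ENSGALT00000012717, ENSGALT00000024292, ENSGALT00000012197 and ENSGALT00000037568, E18 replicate 3 was 3.66, 3.37, 2.74 and 2.60 below the earlier mean, and replicates 1 and 2 were between 0.71 and 0.96 below it. ENSGALT00000028059, ENSGALT00000016065 and ENSGALT00000002159 had their lowest value on E18 replicate 2, with falls of 1.42, 1.21 and 1.10. ENSGALT00000018468 read 12.99, 12.95 and 12.56 at E14, 12.93, 12.90 and 12.28 at E15, 12.42, 12.62 and 12.76 at E16, and 11.71, 11.41 and 11.43 at E18. Its 3 E18 samples lay within 0.3 of each other and 0.57 below the lowest earlier value. ENSGALT00000038510 read 12.30, 12.43 and 11.55 at E18 and ENSGALT00000038513 12.33, 12.32 and 11.82, after earlier values from 13.16 to 13.60 and from 13.07 to 13.46. ENSGALT00000009463 and ENSGALT00000009466 were at 11.41, 10.64 and 10.32 and at 11.13, 10.35 and 9.76 at E18, from earlier means of 12.31 and 12.01. In both of these pairs the 2 transcripts had the same order of the E18 arrays or nearly so. In ENSGALT00000009463 and ENSGALT00000009466 replicate 1 was highest and replicate 3 lowest. That order held for 80.0% of all members, so it is not particular to this pair. In the other pair replicates 1 and 2 lay close together and replicate 3 was lowest. Replicate 3 was lowest in 90.0% of all members. Whether the transcripts of a pair share a gene or probes is not known here. ENSGALT00000006994 read 11.86, 11.99 and 11.00 at E18 after earlier values from 12.67 to 13.15, and ENSGALT00000037801 read 10.80, 10.88 and 10.16 from an earlier mean of 11.88. In these last 2, E18 replicates 1 and 2 were within 0.13 of each other, and replicate 3 was the lowest again.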

How the data were processed

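Total RNA of whole chick lungs was turned into double-stranded cDNA, which was labelled and hybridised to a custom NimbleGen array, 1 array per sample. The paper states normalization by Robust Multi-array Analysis (RMA) and analysis with DNASTAR ArrayStar. The deposited unit is a log2 value for each transcript on each array. Software version, Ensembl release and probes per transcript are not given in the sources used here, and the number of arrays limits the precision. A random-sequence control was left out. The rule was applied to the deposited values without further normalization. All 12 arrays entered 1 linear model with a mean for each stage (limma 3.58.1, R 4.3.3), E18 was contrasted with the mean of E14, E15 and E16, and p-values were adjusted by Benjamini-Hochberg over 21390 transcripts. How the fit and the rule behave when the arrays of 1 stage vary more than the others, as at E18, was not tested. Counts and plots used Python 3.11.15, numpy 2.4.6, pandas 2.3.3 and matplotlib 3.10.9.

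The members and lists were chosen with earlier results of these data known. Transcripts were named as the 10 with the largest fall, the 5 with the widest gap, the 5 brightest and 5 dimmest, the 3 with the smallest and the 3 with the largest SD at E18, and the 2 nearest to each threshold on either side. Lists of marker genes could not be applied without gene names. The alternatives were 4 normalizations, other thresholds of the rule, each array left out, the one-way ANOVA, an intensity trend, the replicate number as a block, a filter on dim transcripts and a fit of E16 and E18. Array SD as a covariate, E18 replicate 1 alone, and leaving out E15 replicate 3 with E16 replicate 1 were added after the data were seen.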

Additional observations from a re-analysis of the deposited data

How the results depend on the processing

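Over all settings, the median fall of the 200 members ran from 0.53 with E18 replicate 1 alone to 1.59 without E18 replicate 1. It ran from 0.84 to 1.59 with 1 array left out. The rule placed every E18 value of a member below all its earlier values. A positive fall was thus fixed by the choice wherever arrays were only left out, and only its size is described. The number of transcripts meeting the rule, 604, was 273 after cyclic loess, 1007 with a fall of at least 0.5, 233 with at least 1, 232 with E18 replicate 1 alone, and 1364 without E15 replicate 3 and E16 replicate 1. With 1 array left out it ran from 298 without E18 replicate 3 to 2801 without E18 replicate 1, and was 982 without E15 replicate 3. The 157 transcripts with the signs turned became 333 after cyclic loess, 253 after scaling to the same median and SD, 236 at 0.5, 85 at 1, 282 with E18 replicate 1 alone, 418 without the 2 earlier arrays, and 125 to 627 with 1 array left out. The highest was without E18 replicate 1. Members meeting the rule numbered 62 with E18 replicate 1 alone and 148 to 200 with 1 array left out.

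Limma, with 1 spread assumed for all stages, called 3364 transcripts lower at E18, 64.8% of its calls. This was 48.7% after cyclic loess and 49.4% after scaling to the same median and SD, where the median difference of all transcripts moved from -0.14 to 0.01 and 0.03. The number lower was 2151 with that scaling, 500 by the one-way ANOVA, 0 with only E16 and E18, 369 at an adjusted p of 0.01, 314 with array SD as a covariate and 287 with E18 replicate 1 alone, a fit in which that lone sample is assumed to vary like the other stages. Leaving out E18 replicate 1, 2 or 3 gave 7539, 648 or 1532. Leaving out E15 replicate 1 or 2 or any single E14 or E16 array gave 1422 to 2003, and leaving out E15 replicate 3 gave 4219. Members called, 183, became 22, 0, 47, 44 and 20 in the settings from the ANOVA on, in that order, and 74 to 200 with 1 array left out, lowest without E18 replicate 2. The cause of these changes was not tested. The one-way ANOVA asks for any difference between the stages, and only the direction was taken from E18 against the earlier mean. Its counts are thus not counts of the limma contrast. With the replicate number as a block, 2682 transcripts and 175 members were called. In the main fit the numbers were not used to pair the samples. Deviations correlated above 0.1 in 3 of 18 pairs of arrays with the same number and in 15 of 36 with different numbers. Of 12 arrays, 2 correlated best with an array of their own number. The highest correlation, 0.701, was between E15 replicate 3 and E16 replicate 1, the earlier arrays with the lowest SD. A pairing could be hidden under such differences, so this check cannot exclude it.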
